A study of Homo sapiens with 12 samples.

Results

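Glucose breakdown and storage were followed through 36 genes, chosen by name and function and not by their values. Earlier results of these data were known when these genes were chosen. They comprise 2 glucose transporters, 2 hexokinases, 3 phosphofructokinase subunits with 3 of the PFKFB regulators, the remaining enzymes of glycolysis (4 of the upper and 7 of the lower steps), 4 genes of lactate formation and transport, 4 pyruvate dehydrogenase kinases and 7 genes of glycogen metabolism. All 36 were found among the 57773 gene IDs of the deposited table, through the names of GENCODE release 29. All 36 also passed the filter on low values, which asked of a gene that it average 10 or more over the libraries fitted, so every member entered every test.

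RNA was sequenced from HEK293, a human embryonic kidney cell line, and from the extracellular vesicles (EVs) of its cultures, small membrane particles that carry RNA out of cells. All 4 groups shared growth with 10% serum and transfection by lipofection for 48 h with the 4EC1 vectors, named for eGFP, EIF4E, YTHDF1, GBP1 and CD9, so no group was free of the construct. Normoxia cells and normoxia EVs came from the cultures labelled normoxia, and hypoxia cells and hypoxia EVs from cultures kept for 24 h in a hypoxia chamber, with 3 replicates per group and 12 libraries in all. Per the labels' protocols, TRIzol served for cellular RNA and the exoRNeasy midi kit for RNA of EVs, and stranded total RNA libraries were made from both. The sources used here give neither the oxygen level in the chamber nor the form in which the vectors were kept. The series' title presents the system as a way to profile living cells without harm, and the comparisons asked what hypoxia did to RNA in cells and in EVs and how EV RNA differed from cellular RNA. The labels do not say whether replicates came from separate cultures, and p-values thus measure how far these samples differ, which may be technical spread.

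Cells that run short of oxygen shift their energy supply from the mitochondria to glycolysis, which yields ATP from glucose without oxygen and ends in lactate. The shift is driven in large part by the hypoxia-inducible factors (HIF), which bind short DNA elements with the core letters ACGTG or GCGTG and activate genes of glucose uptake and glycolysis. Pyruvate dehydrogenase kinases switch off the enzyme complex that feeds pyruvate to the mitochondria, and glycogen is the stored form of glucose.

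The values are read counts divided by a single factor per library, in the authors' units, and the differences below are differences of mean log2(value + 1), which understate the change of low genes. The depth was 18059381 to 23400813 reads in cell libraries, 5266244 to 7001767 in those of normoxia EVs and 3259453 to 6129782 in those of hypoxia EVs, so that 1 read was worth 0.512 and 0.527 units in normoxia and hypoxia cells and 2.04 and 1.79 units in normoxia and hypoxia EVs. A count of 0 allows up to 3 reads, that is 1.54, 1.58, 6.13 and 5.38 units in the same order, for counting error only. The construct genes EIF4E, YTHDF1 and CD9 took 6.13% (normoxia) and 7.09% (hypoxia) of the reads in cells and 23.5% and 21.7% in EVs. Olfactory receptor genes, a class silent in most tissues, served as a background: the 356 of them in the table together held 0.508 ± 0.110 (normoxia) and 0.706 ± 0.131 (hypoxia) units per kb of exon in cells, and 2.99 ± 1.79 (normoxia) and 8.52 ± 0.560 (hypoxia) in EVs (SD, n = 3 each). Normoxia EV replicate 3 stood apart from the other normoxia EVs, with a background of 4.97 against 1.48 and 2.53. Of the 6 HEK293 markers listed, the 4 found in the table averaged 10 or more in every group, led in cells by IRS4 with 9201 to 9327 units in normoxia and 4668 to 4830 in hypoxia. Summed markers of blood (10 genes) lay between 34.6 and 42.8 in cells, between 71.4 and 207 in normoxia EVs and between 318 and 379 in hypoxia EVs. The 10 liver and plasma markers gave 43.3 to 97.6 in cells, 138 to 407 in normoxia EVs and 623 to 827 in hypoxia EVs, and none of the markers of blood or liver was at 0 in all 12 libraries.

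In normoxia cells the members spanned a wide range of levels. Levels were set per kb of annotated exon to compare genes, so their order rests in part on the annotated lengths. On this scale GAPDH stood highest at 3702, followed by ENO1 at 2580, ALDOA at 2520, LDHB at 2480 and TPI1 at 2313. PKM, LDHA, SLC16A1, PGK1 and PGAM1 came next with 1274, 1233, 599, 566 and 492 units per kb. The lowest were SLC16A3 at 7.20, PDK4 at 9.33, PFKFB4 at 14.5, ENO3 at 14.9 and SLC2A3 at 17.4. Among the enolases the common form ENO1 thus stood far above ENO2 (32.3 per kb) and ENO3. All members lay at 3 or more times the olfactory receptor density in both cell groups. Together they took 0.842% ± 0.0122 of all reads under normoxia and 1.27% ± 0.0178 under hypoxia in cells, and 0.539% ± 0.0564 and 0.590% ± 0.0286 in the corresponding EVs (SD, n = 3 each).

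**Figure D1:**
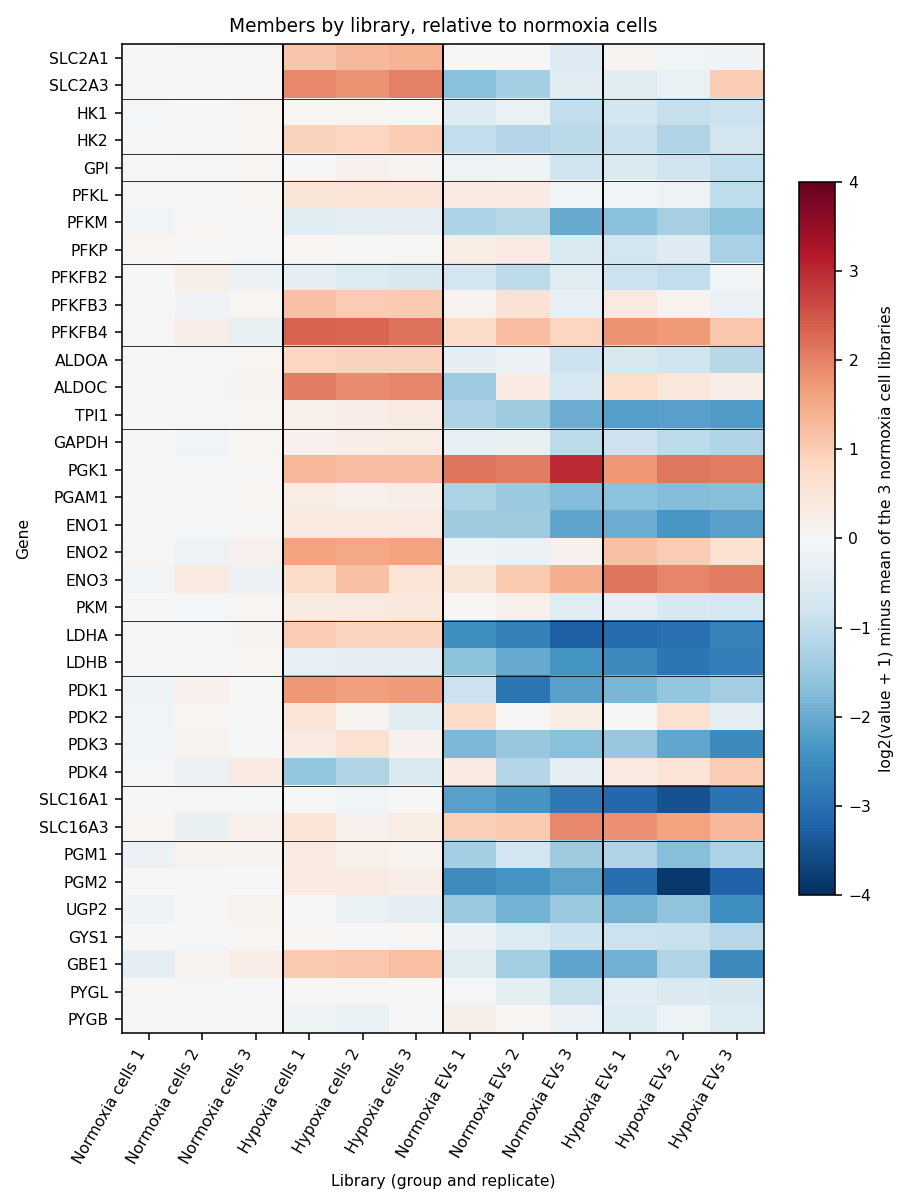
Level of each of the 36 members in each library, as log2(value + 1) minus the mean of the 3 normoxia cell libraries, in columns of 3 libraries per group. Most rows of the upper and lower glycolysis are higher in the hypoxia cell columns, while in the EV columns most members are lower and PGK1 stands out as higher.

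Hypoxia was compared with normoxia in the 6 cell libraries. Of the 36 members 21 rose and 4 fell (limma, adjusted p under 0.05 over all 17260 genes tested), where 8.01% of all genes were called higher and 22.4% lower. The median log2 difference of the members was 0.33, with 29 of 36 above 0, against -0.07 for all genes. Among the 21 that rose, 9 did so by at least 2-fold. In bulk RNA such as this, a change in the makeup of the culture and a change in RNA per cell cannot be told apart. By role, both transporters, 3 of 4 upper and all 7 lower glycolytic genes rose, as did 1 of 2 hexokinases, 1 of 3 phosphofructokinase subunits, 2 of 3 PFKFB regulators, 1 of 4 lactate genes, 2 of 4 pyruvate dehydrogenase kinases and 2 of 7 glycogen genes.

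Both glucose transporters rose. SLC2A1, which encodes the widespread transporter GLUT1, stood at 569, 548 and 584 in the normoxia cell libraries and at 1231, 1403 and 1472 in the hypoxia cell libraries, a log2 difference of 1.27 (SE 0.08, n = 3 each, limma adjusted p = 1.51e-22). The high-affinity transporter gene SLC2A3 (GLUT3) went from 103, 108 and 111 to 406, 379 and 435, a difference of 1.91 (SE 0.12, limma adjusted p = 1.44e-20). For neither gene did the 2 groups overlap. In GENCODE release 29 on GRCh38 SLC2A1 lies on the minus strand at chr1:42925375-42959176 and SLC2A3 on the minus strand at chr12:7919230-7936275. SLC2A3 has a near-identical paralog, SLC2A14, and reads may have been split between them.

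Hexokinases trap glucose in the cell by phosphorylation, and the inducible form rose. HK2 had 1195, 1163 and 1274 in normoxia cells and 2286, 2195 and 2438 in hypoxia cells (0.93, SE 0.06, limma adjusted p = 1.55e-19), with no overlap. The housekeeping form HK1 averaged 1634 ± 64.2 and 1714 ± 25 (SD, n = 3 each), a log2 difference of 0.07 that did not pass.

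Among the subunits of phosphofructokinase, the committed step of glycolysis, the liver form PFKL rose by 0.50 (SE 0.07, limma adjusted p = 2.00e-08) and the muscle form PFKM fell by 0.42 on the log2 scale (SE 0.08, limma adjusted p = 1.57e-05). The platelet form PFKP had 903 ± 44.1 and 926 ± 35.2 (SD, n = 3 each) and did not pass. The bifunctional PFKFB enzymes set the level of the metabolite that activates phosphofructokinase. PFKFB3, the form that mainly makes it, had 845, 740 and 868 in normoxia cells and 1839, 1667 and 1691 in hypoxia cells (1.08, SE 0.07, limma adjusted p = 8.94e-21). PFKFB4 rose from 90.1, 105 and 70.7 to 451, 440 and 398, with 2.28 the largest log2 difference of the members in cells (SE 0.13, limma adjusted p = 1.15e-22). PFKFB2, the heart form, fell by 0.52 on the same scale (SE 0.12, limma adjusted p = 5.17e-04), with 294 ± 48.4 in normoxia and 203 ± 17.9 in hypoxia. Within this small family, then, the 2 higher and the 1 lower member each had groups that did not overlap.

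Aldolase splits the phosphorylated hexose. Its common form ALDOA went from 9670, 9472 and 10465 in normoxia cells to 17858, 18561 and 18728 in hypoxia cells (0.90, SE 0.05, limma adjusted p = 9.03e-24). The brain form ALDOC, at a far lower level, went from 106, 101 and 115 to 441, 403 and 416 (1.96, SE 0.12, limma adjusted p = 2.98e-21). TPI1, triosephosphate isomerase, rose by a smaller 0.27 (SE 0.05, limma adjusted p = 4.75e-05), and GPI, glucose phosphate isomerase, did not pass (0.10).

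The lower part of the pathway, from GAPDH to pyruvate kinase, makes the ATP, and every member of it rose. PGK1, phosphoglycerate kinase, had 3115, 3011 and 3235 in normoxia cells and 7754, 7354 and 7339 in hypoxia cells, a log2 difference of 1.26 with the smallest p of the members (SE 0.05, limma adjusted p = 2.87e-30). ENO2, the neuronal enolase, had 141, 119 and 155 in normoxia and 422, 403 and 421 in hypoxia (1.59, SE 0.12, limma adjusted p = 1.25e-17). The muscle enolase ENO3 rose by 0.82 (SE 0.20) from the low level of 64.1 ± 14.3 (SD, n = 3). The abundant enzymes had smaller differences: ENO1 and the pyruvate kinase gene PKM each rose by 0.38, GAPDH by 0.26 and PGAM1, phosphoglycerate mutase, by 0.24 (SE 0.05 for the first 3 and 0.07 for PGAM1, limma adjusted p = 0.00359 for PGAM1, the largest of the 4).

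Lactate dehydrogenase is a tetramer of A and B subunits, and the 2 genes went opposite ways. LDHA, whose product favours the making of lactate, rose from 7232, 7532 and 8210 in normoxia cells to 15556, 14225 and 14258 in hypoxia cells (0.94, SE 0.05, limma adjusted p = 6.13e-24). LDHB fell from 7399 ± 421 to 5768 ± 127 (SD, n = 3 each, log2 difference -0.36, SE 0.05, limma adjusted p = 1.13e-07). The lactate carriers did not pass: SLC16A1 (MCT1) differed by -0.07 and SLC16A3 (MCT4) by 0.33 (SE 0.21, limma adjusted p = 0.251), the latter at a level of 64.8 and 81.4.

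Of the pyruvate dehydrogenase kinases, PDK1 rose most, from 381, 486 and 436 in normoxia cells to 1449, 1390 and 1421 in hypoxia cells (1.71, SE 0.08, limma adjusted p = 3.20e-28). PDK3 rose by 0.37 (SE 0.09, limma adjusted p = 0.00157), a call that was lost without hypoxia cell replicate 2 (0.25, limma adjusted p = 0.0626). PDK4 fell by 1.11 on the log2 scale (SE 0.34, limma adjusted p = 0.00820), from 42.2 ± 8.72 to 19.6 ± 7.37, and lost its call without normoxia cell replicate 3 (-0.95, limma adjusted p = 0.0717) or hypoxia cell replicate 1 (-0.88, limma adjusted p = 0.0512). PDK2 did not pass, at 146 ± 9.25 and 157 ± 49.8 (SD, n = 3 each).

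Of the 7 glycogen genes 2 rose. GBE1, the branching enzyme, rose from 127, 177 and 200 in normoxia cells to 342, 348 and 380 in hypoxia cells (1.10, SE 0.13, limma adjusted p = 1.00e-10). PGM2, a phosphoglucomutase, rose by 0.32 (SE 0.08, limma adjusted p = 0.00180). PGM1 (0.23, limma adjusted p = 0.0556), UGP2 (-0.22), the glycogen synthase GYS1 (0.06) and the phosphorylases PYGL (0.02) and PYGB (-0.18, limma adjusted p = 0.111) did not pass, although the 2 groups of PYGB did not overlap. The synthase lengthens the glycogen chains and the phosphorylases shorten them.

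**Figure D2:**
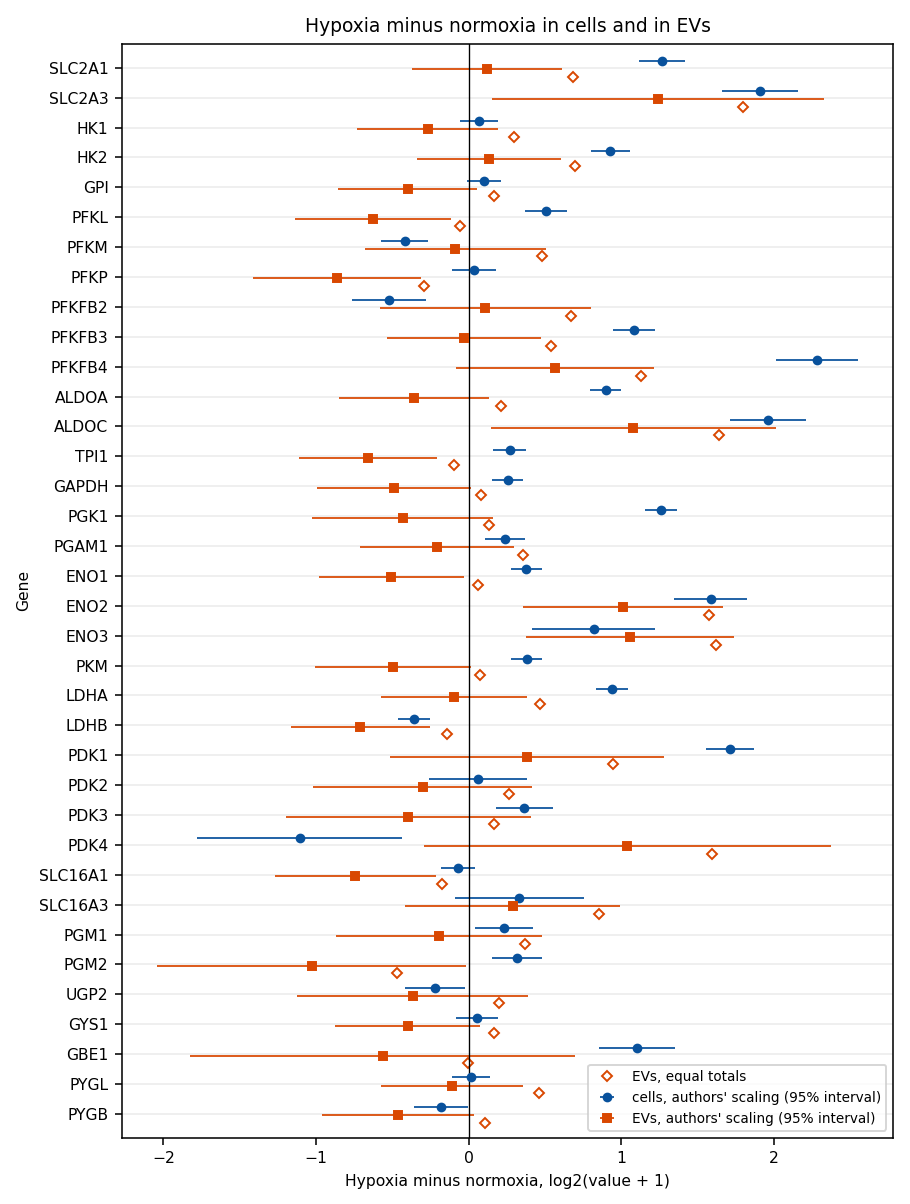
Log2 difference, hypoxia minus normoxia, of each member in cells (circles) and in EVs (squares) with 95% intervals, and in EVs after scaling to equal totals (open diamonds). The cell values reach 2.28 for PFKFB4 with short intervals, while the EV intervals are wide and most of the EV squares lie below 0.

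The promoters of the members were read for the 2 HIF core motifs, since 21 members rose together in cells. The 250 bases before the RefSeq gene start (GRCh38.p14) were searched on both strands for ACGTG and GCGTG, so that a CACGTG counts on each strand. Promoters were found for 33 of the 36 members (not SLC2A3, PFKFB2 and SLC16A1). Either motif was present in 15 of the 20 members that rose and had a promoter (75.0%), in 4 of the 13 others (30.8%) and in 43.1% of all 27305 promoters of this length. For ACGTG alone the shares were 50%, 15.4% and 18.7%, and for GCGTG 55.0%, 23.1% and 31.9%. SLC2A1, PDK1, PKM, TPI1 and PGAM1, all of which rose, held neither motif in this window. The sequences are 3 promoters of genes that rose with several motifs each, and that of LDHB, which fell and held none; capitals mark the motifs. They lie at chr17:28576896-28577145 (ALDOC, minus strand, 3 ACGTG and 2 GCGTG), chrX:78103998-78104247 (PGK1, plus strand, 2 and 1), chr11:18394313-18394562 (LDHA, plus strand, 5 and 0) and chr12:21657843-21658092 (LDHB, minus strand), each printed 5′ to 3′ on the gene's own strand.
ALDOC: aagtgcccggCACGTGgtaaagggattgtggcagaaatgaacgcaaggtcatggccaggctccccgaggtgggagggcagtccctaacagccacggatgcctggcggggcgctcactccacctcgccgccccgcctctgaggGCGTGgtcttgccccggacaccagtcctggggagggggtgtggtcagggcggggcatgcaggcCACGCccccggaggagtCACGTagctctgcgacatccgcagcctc
PGK1: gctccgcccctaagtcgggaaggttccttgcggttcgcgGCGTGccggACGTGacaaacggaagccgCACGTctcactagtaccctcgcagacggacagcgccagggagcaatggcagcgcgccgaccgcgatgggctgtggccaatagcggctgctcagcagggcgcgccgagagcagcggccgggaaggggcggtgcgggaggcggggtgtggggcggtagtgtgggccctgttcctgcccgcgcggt
LDHA: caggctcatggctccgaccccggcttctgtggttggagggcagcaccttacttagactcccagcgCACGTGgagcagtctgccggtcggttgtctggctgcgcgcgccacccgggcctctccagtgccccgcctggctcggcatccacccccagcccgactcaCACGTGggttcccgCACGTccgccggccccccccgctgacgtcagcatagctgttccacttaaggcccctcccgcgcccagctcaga
LDHB: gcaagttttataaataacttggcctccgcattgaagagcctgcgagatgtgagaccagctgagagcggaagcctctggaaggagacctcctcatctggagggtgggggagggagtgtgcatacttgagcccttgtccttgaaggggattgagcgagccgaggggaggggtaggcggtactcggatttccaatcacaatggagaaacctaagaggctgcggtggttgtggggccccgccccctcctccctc
These are matches of letters and not measured binding sites.

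Other genes of the same metabolism were followed too. Of 86 further genes of glucose transport, glycolysis, the pyruvate dehydrogenase complex, gluconeogenesis, glycogen and the pentose phosphate pathway, 85 were matched and 67 passed the filter, of which 5 were higher and 20 lower in hypoxia (median -0.09), where 8.01% and 22.4% of all genes were. Those named by their p and an average of 100 or more were ARRDC4 (0.56) and the mitochondrial PEP carboxykinase PCK2 (0.32) among the higher. The other 3 higher genes had means under 100 and were named after their values were seen: PPP1R3G (2.95), PPP1R3C (2.29) and PCK1 (2.06). Among the lower were DLAT (-0.69) and PDHA1 (-0.42), subunits of the pyruvate dehydrogenase complex, and TALDO1, the transaldolase of the pentose phosphate pathway (-0.47).

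The same comparison was made in EVs. Hypoxia EVs had 2 members higher and 3 lower than normoxia EVs (limma, adjusted p under 0.05 over 27904 genes), where 5.68% of all genes were called higher and 6.62% lower. The median of the members was -0.28 against 0.60 for all genes, and 11 of 36 were above 0. Both medians move with the scaling: with equal totals they were 0.28 and 1.20, with 29 members above 0. Equal totals called 7 members higher and 0 lower, where 15.4% of all genes were called higher and 0.658% lower. At an unadjusted p under 0.05 these counts were 13 and 0, against 4 and 7 with the authors' scaling. The members' median lay below that of all genes by -0.88 with the authors' scaling and -0.92 with equal totals. Where only genes averaging 50 or more were fitted, the gap was -0.14 (all genes -0.15, with 9.59% called higher and 15.6% lower). After subtraction of the olfactory receptor density the medians were -0.44 and -0.17. The subtraction left 0 members higher and 4 lower (2 and 10 at an unadjusted p under 0.05), where 1.97% and 13.0% of all genes were called. On recovered reads edgeR called 1 and 4 (3.68% and 8.88% of all genes), and DESeq2 1 and 7 (5.56% and 10.7%).

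Both members called higher in EVs were enolases. ENO2 had 121, 117 and 154 in normoxia EVs and 310, 277 and 212 in hypoxia EVs, a log2 difference of 1.01 (SE 0.32, n = 3 each, limma adjusted p = 0.0417). ENO3 had 88.0, 132 and 176 in normoxia EVs and 281, 248 and 267 in hypoxia EVs (1.06, SE 0.33, limma adjusted p = 0.0408). The 2 groups did not overlap for either gene, which held for 23.4% of all genes in this direction. In hypoxia EVs they lay at 7.37 (ENO2) and 7.27 (ENO3) times the olfactory receptor density, and after its subtraction neither passed (0.93, limma adjusted p = 0.0804, and 0.98, limma adjusted p = 0.0731). Markers of the tissues that use these isoforms were higher in the same libraries: the sum of 5 neuronal markers was 642 to 1036 in normoxia EVs and 1047 to 1430 in hypoxia EVs (407 to 454 in cells), and that of 6 skeletal muscle markers 304 to 692 and 851 to 964 (45.2 to 73.0 in cells), with none at 0 in all libraries. Sums of blood markers and of liver and plasma markers were higher in hypoxia EVs as well. The olfactory receptor density was also higher there, at 8.52 against 2.99 units per kb. The part of these markers and of the background in the result was not tested. ENO3 (chr17:4948092-4957131, plus strand) also shares 111 exon bases with PFN1 on the opposite strand.

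The 3 members called lower were PFKP, LDHB and TPI1. PFKP had 1101, 1126 and 592 in normoxia EVs and 530, 635 and 363 in hypoxia EVs (-0.86, SE 0.27, limma adjusted p = 0.0402), and its groups overlapped. LDHB went from 2360, 1818 and 1417 to 1254, 1002 and 1105 (-0.71, SE 0.22, limma adjusted p = 0.0412) and TPI1 from 2669, 2311 and 1587 to 1367, 1395 and 1299 (-0.66, SE 0.22, limma adjusted p = 0.0493), both without overlap, which held for 14.5% of all genes in this direction. With equal totals these differences shrank to -0.29, -0.14 and -0.09 and none passed, whereas ENO2 and ENO3 stood at 1.58 and 1.62 and passed. SLC16A1 and PGM2 also had groups that did not overlap, lower in hypoxia EVs, but did not pass (-0.74, limma adjusted p = 0.0551, and -1.03, limma adjusted p = 0.139). All 5 calls depended on which libraries entered: 0 members passed in either direction when normoxia EV replicate 1 or 2 or any of the 3 hypoxia EV replicates was left out (limma, with 3 to 4 higher and 4 to 6 lower at an unadjusted p under 0.05), and 3 passed higher and 13 lower without normoxia EV replicate 3.

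How the members that rose in cells stood in EVs depended on the scaling. Of the 21, 8 had an EV difference above 0 with the authors' scaling, 2 of them called higher, and 17 with equal totals, 7 of them called higher. The shares of all genes called higher in EVs were 5.68% and 15.4% in the same order. With the authors' scaling 13 had a 95% interval in EVs that included 0, and 15 had an EV interval lying wholly below the value in cells. SLC2A1 had 569, 573 and 397 in normoxia EVs and 616, 528 and 509 in hypoxia EVs, groups that overlap (0.12, not called). LDHA had 1392, 1176 and 792 against 910, 974 and 1195, also with overlap. The largest positive EV estimates that did not pass were those of SLC2A3 (1.24, SE 0.53, limma adjusted p = 0.103) and ALDOC (1.08, SE 0.45, limma adjusted p = 0.1). With equal totals both passed, at 1.80 and 1.64, as did PFKFB4 at 1.13, HK2 at 0.70 (limma adjusted p = 0.0294) and SLC2A1 at 0.69 (limma adjusted p = 0.0284). The median of all genes with that scaling was 1.20.

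The difference between the 2 hypoxia responses, EVs minus cells, was tested as an interaction over all 12 libraries. It was negative for 10 members and positive for 0 (limma, adjusted p under 0.05 over 24171 genes; 20 and 1 at an unadjusted p under 0.05), where 1.87% of all genes were called lower and 0.443% higher. edgeR on recovered reads called 17 lower and 0 higher, where 6.12% and 0.765% of all genes were. DESeq2 called 17 lower and 1 higher, PDK4, where 9.42% and 2.95% of all genes were. The median of the members was -0.71 against 0.23 for all genes. The latter was -0.16 among genes averaging 50 or more (5.38% called lower, 12 members lower) and -0.31 with the olfactory receptor density subtracted (6.30% called lower, 12 members lower). The largest of the 10 were PFKFB4 (-1.72, SE 0.33, limma adjusted p = 0.0158), PGK1 (-1.69, SE 0.28, limma adjusted p = 0.00578), PGM2 (-1.34, SE 0.32) and ALDOA (-1.25, SE 0.24, limma adjusted p = 0.0158). With equal totals, which moves the median of all genes to 0.70, the call was kept by PGK1 (-1.25), ALDOA (-0.81), SLC2A1 (-0.71), LDHA (-0.59) and TPI1 (-0.49). PGK1 was the member that kept its call under every setting and without any 1 of the libraries. The count of members called lower fell to 1 or 2 when a cell library was left out (0.138% to 0.304% of all genes). It reached 22 without normoxia EV replicate 3, where 13.3% of all genes were called lower.

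EVs were then compared with cells within each condition. In normoxia 22 members were lower and 4 higher in EVs than in cells (limma, over 24171 genes), where 27.2% and 29.0% of all genes were called lower and higher. In hypoxia 29 were lower and 4 higher, where 29.1% and 40.6% of all genes were. The members' medians were -0.57 in normoxia and -1.21 in hypoxia, against 0.21 and 0.43 for all genes. Among genes averaging 50 or more the medians of all genes were -0.34 and -0.50, with 43.9% and 48.8% called lower, and those of the 35 members left were -0.58 and -1.29. Without overlap between the groups, 22 members were lower and 4 higher in normoxia (28.8% and 29.2% of all genes) and 29 lower and 4 higher in hypoxia (32.1% and 46.0% of all genes). The same member was lower in both conditions in 21 cases and higher in both in 3, namely PGK1, SLC16A3 and ENO3. PFKFB4 was higher in normoxia (0.95, SE 0.24, limma adjusted p = 0.00206) and lower in hypoxia (-0.77), and PDK4 was higher in hypoxia (1.73, SE 0.48, limma adjusted p = 0.00350) and not called in normoxia (-0.41). Lower values in EVs were found in most roles: both hexokinases, all 4 upper glycolytic genes in hypoxia and 6 of the 7 glycogen genes, PYGB being the exception, were lower.

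**Figure D3:**
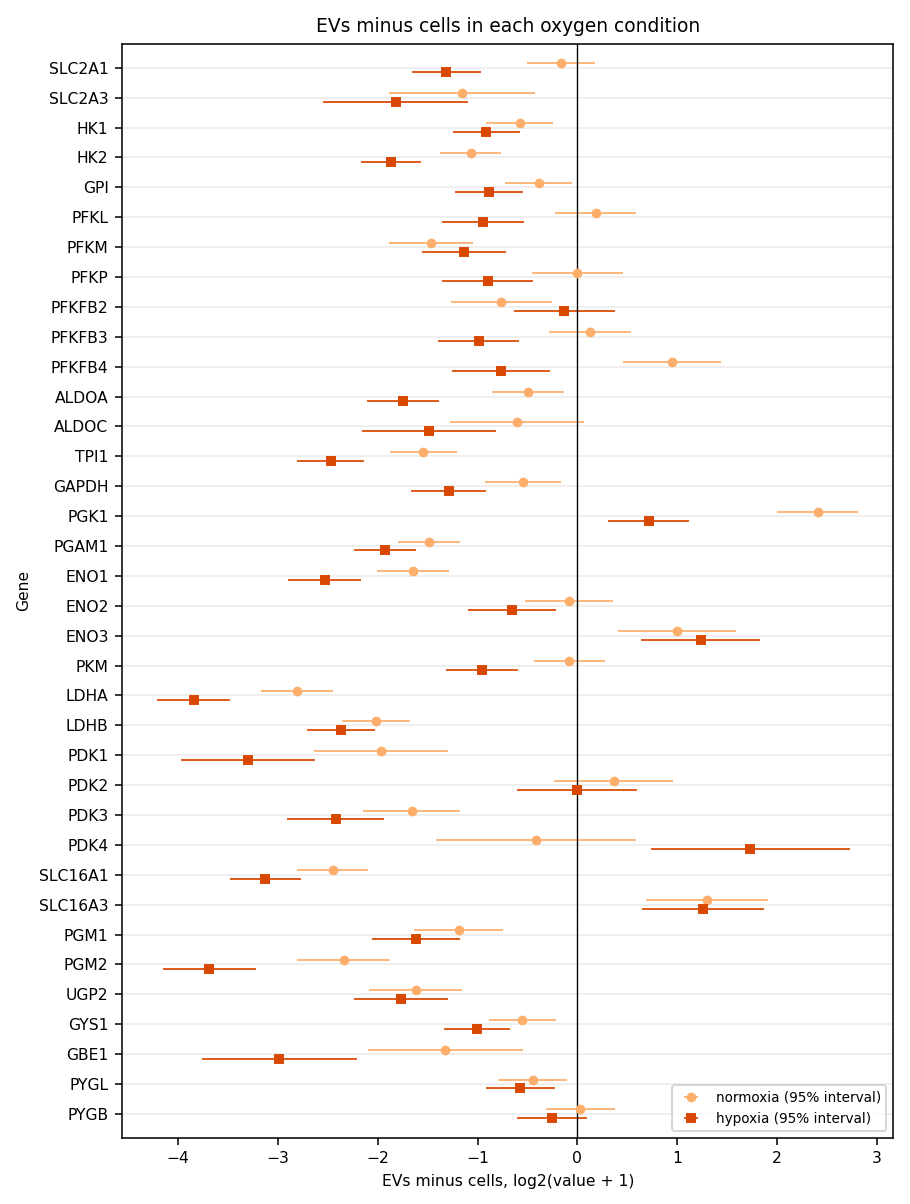
Log2 difference, EVs minus cells, of each member in normoxia (circles) and hypoxia (squares), with 95% intervals. LDHA, at -2.81 and -3.85, has the lowest value in each condition, and PGK1 stands above 0 in both, at 2.41 and 0.71.

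Of the lactate genes 3 of 4 were lower in EVs, and LDHA had the lowest difference of the members in both conditions. It had 7232 to 8210 units in normoxia cells and 1392, 1176 and 792 in normoxia EVs, a log2 difference of -2.81 (SE 0.17, n = 3 each, limma adjusted p = 4.99e-10), and in hypoxia the difference was -3.85 (SE 0.17, limma adjusted p = 6.19e-12). SLC16A1 had 3122, 3259 and 3160 in normoxia cells and 709, 625 and 440 in normoxia EVs (-2.45, SE 0.17, limma adjusted p = 1.51e-09), and 3046, 2931 and 3124 against 358, 286 and 406 in hypoxia (-3.13). LDHB was lower by -2.02 (SE 0.16) and -2.37 in the same order. No EV library reached any cell library for these 3 genes. The other lactate carrier, SLC16A3, had 67.4, 52.4 and 74.6 in normoxia cells and 124, 133 and 244 in normoxia EVs (1.3, SE 0.29, limma adjusted p = 9.17e-04), and 93.6, 71.6 and 79.2 against 230, 199 and 161 in hypoxia (1.26, SE 0.29, limma adjusted p = 9.23e-04). It was therefore higher in every EV library than in any cell library. SLC16A3 lay at 2.59 times the olfactory receptor density in hypoxia EVs, lost its call there once that density was subtracted (0.63, limma adjusted p = 0.129) and, at chr17:82228397-82261129 on the plus strand, shares 482 exon bases with CSNK1D on the opposite strand.

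Among the enzymes of the main pathway the differences were graded. ENO1 had 13466, 13177 and 14197 in normoxia cells and 5129, 5106 and 3127 in normoxia EVs (-1.65, SE 0.17, limma adjusted p = 2.15e-07), and -2.53 in hypoxia. TPI1 and PGAM1 were lower by -1.54 and -1.48 in normoxia and by -2.47 and -1.93 in hypoxia. Smaller differences were seen for GAPDH (-0.54 and -1.29) and ALDOA (-0.49 and -1.75). Without normoxia EV replicate 3 the normoxia values were -0.30 for each, still called, and without normoxia cell replicate 3 neither passed (limma adjusted p = 0.0565 for GAPDH and 0.0746 for ALDOA). PKM did not pass in normoxia (-0.08) and was lower in hypoxia (-0.96). PFKP, PFKL, PFKFB3, SLC2A1 and ENO2 passed in hypoxia and not in normoxia, with -0.90, -0.95, -0.99, -1.31 and -0.66 in hypoxia. With equal totals SLC2A1 (-0.34, limma adjusted p = 0.0294) and PKM (-0.25, limma adjusted p = 0.0316) also passed in normoxia. In hypoxia ENO2 did not pass with equal totals (-0.39, limma adjusted p = 0.127), nor did PFKFB4 (-0.50, limma adjusted p = 0.0711). Whether the difference itself changed with hypoxia is the interaction above, which PFKL, PFKFB3 and SLC2A1 passed and PFKP, PKM and ENO2 did not.

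Several less abundant members lay close to the background in EVs. PGM2 had 516, 529 and 532 in normoxia cells and 90.4, 103 and 117 in normoxia EVs (-2.34, SE 0.22, limma adjusted p = 5.80e-08), and 661, 681 and 626 against 64.1, 35.0 and 55.5 in hypoxia (-3.69, SE 0.22, limma adjusted p = 1.41e-10). PDK1 had 238, 57.7 and 95.8 in normoxia EVs and 122, 148 and 164 in hypoxia EVs, differences from cells of -1.97 and -3.30 (SE 0.32 each). GBE1 had 119, 63.1 and 37.1 in normoxia EVs and 42.7, 71.6 and 27.7 in hypoxia EVs (-1.32 and -2.99). For both genes normoxia EV replicate 1 was the highest of the EV libraries. In hypoxia EVs GBE1 lay at 1.10 and PDK1 at 1.14 times the olfactory receptor density per kb, close to the level of silent genes. PGM2 (1.63), PDK4 (1.71), PFKFB2 (2.18), UGP2 (2.22), SLC2A3 (2.38), SLC16A3 (2.59) and PDK3 (2.62) made up the other members below 3 times that density, 9 in all, against 1 in normoxia EVs, SLC2A3 at 2.96. In turn 18 members in hypoxia EVs and 30 in normoxia EVs lay at 10 or more times it. Between normoxia and hypoxia EVs the density itself went from 2.99 to 8.52 units per kb. Of the 9 members, SLC2A3 (1.24), PDK4 (1.04), PDK1 (0.38), SLC16A3 (0.29) and PFKFB2 (0.11) had hypoxia differences above 0 in EVs. The others lay below 0, and none was called. Subtracting the density made the hypoxia differences of PDK1 (-7.22), GBE1 (-6.81), SLC2A3 (-2.86) and UGP2 (-2.78) larger, with PDK1 at 0 in 1 and GBE1 in 2 of the hypoxia EV libraries, and ended the higher call of PDK4 (0.68, limma adjusted p = 0.434). In normoxia it took PDK1 to -3.18 and ended the call of GBE1 (-1.98, limma adjusted p = 0.147).

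PGK1 was the exception among the abundant members. Its 3115, 3011 and 3235 units in normoxia cells stood against 13792, 13222 and 24840 in normoxia EVs, a log2 difference of 2.41 (SE 0.19, n = 3 each, limma adjusted p = 7.93e-09). In hypoxia 7754, 7354 and 7339 units in cells stood against 10409, 13411 and 13220 in EVs (0.71, SE 0.19, limma adjusted p = 0.00321). Every EV library was above every cell library of its condition, the widest gap being that of normoxia EV replicate 3, without which the normoxia difference was 2.11. As a share of the reads on the 36 members, PGK1 took 3.42% in cells under normoxia and 5.92% under hypoxia, and in EVs 26.7% (40.6% in replicate 3) and 25.4%. At 264 times the olfactory receptor density in hypoxia EVs it was far from the background. In GENCODE release 29 the gene spans chrX:77910739-78129296 on GRCh38, plus strand, from a distant upstream exon that shares 97 bases with ATP7A and 95 with the pseudogene C4orf46P2 on the same strand. C4orf46P2 held 2.38, 3.60 and 86.0 units in normoxia EVs and 20.0, 22.8 and 35.3 in hypoxia EVs, and ATP7A 157, 81.1 and 95.8 and 32.1, 86.8 and 95.8, all small beside PGK1. Which exons of PGK1 the EV reads covered cannot be read from values per gene.

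Base composition moved with the difference between EVs and cells. The GC content of a gene was the median over its protein-coding transcripts in GENCODE release 29. Across the 36 members, the difference in normoxia and this GC content had a Pearson r of 0.51 and a Spearman rho of 0.64. In hypoxia the values were 0.35 and 0.42. Without PGK1, which is among the 12 members of lowest GC content but is high in EVs, the values over 35 members were 0.72 and 0.76 in normoxia and 0.43 and 0.51 in hypoxia. Over 9896 protein-coding genes that averaged 100 or more in cells, r was 0.55 and 0.57. These are descriptions across genes that share the same libraries, and they were added after the values were seen. The 12 members with the lowest GC content (39.4% to 47.5%), among them LDHA, LDHB, SLC16A1, PGM2 and PDK1, had a median difference of -1.64 in normoxia and -2.39 in hypoxia. PDK4, which has the lowest GC content of all, had -0.41 in normoxia and 1.73 in hypoxia, the highest value of the members there. The 12 with the highest (56.7% to 67.8%), among them PKM, PFKL, PFKP, PYGB and SLC16A3, had 0.08 and -0.89. Of these, 3 were called higher and 3 lower in normoxia, and 2 higher and 8 lower in hypoxia. The 12 between, GAPDH and ENO1 included, had -0.84 and -1.40. The part of base composition in the differences was not tested.

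**Figure D4:**
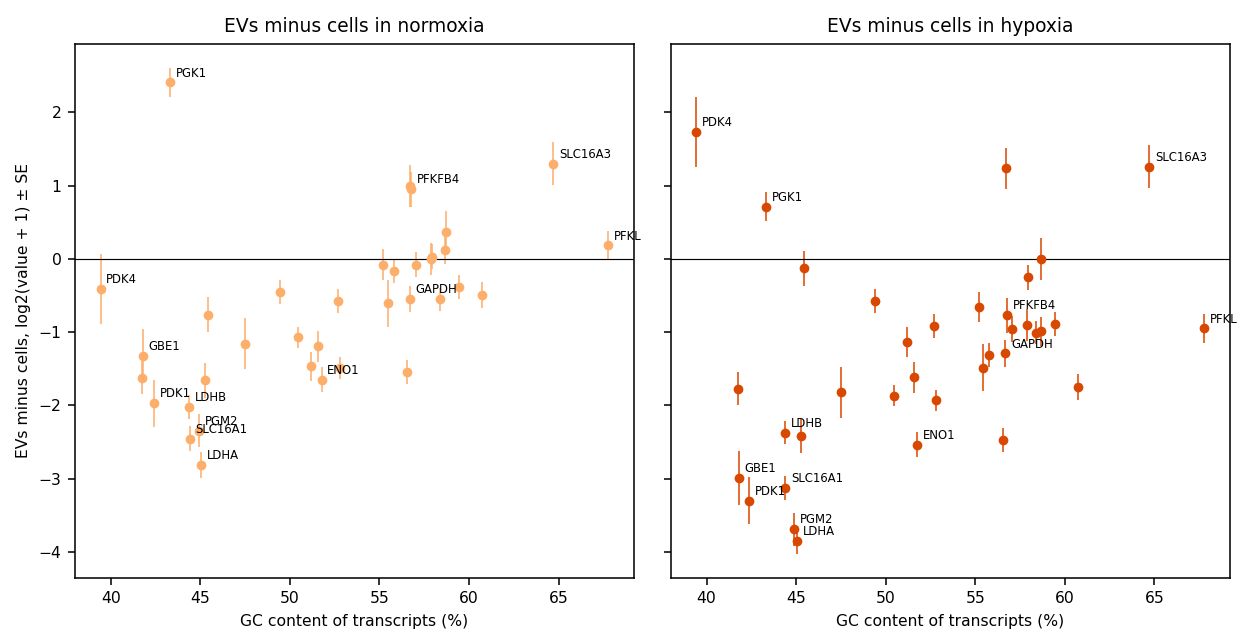
Log2 difference, EVs minus cells, of each member (± SE) against the GC content of its transcripts in percent, for normoxia and for hypoxia. Members of low GC content such as LDHA lie lowest, those of high GC content near or above 0 in normoxia, and PGK1 stands apart at low GC content with 2.41 in normoxia.

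A ratio of 2 isoenzymes within a library does not depend on how libraries are scaled, and 10 such pairs were compared as log2 ratios of values per kb, in 30 exact two-sided permutation tests with Benjamini-Hochberg adjustment. With 3 libraries against 3 the smallest p is 0.1, so hypoxia comparisons could not pass. In cells all 10 ratios had groups that did not overlap, 9 higher and 1 lower in hypoxia (exact permutation p = 0.1, adjusted p = 0.15 for each). With the olfactory receptor density subtracted 9 did, SLC16A3/SLC16A1 being the exception. Of single genes 12.7% were higher and 27.6% lower without overlap. Those shares depend on the scaling and are not shares of ratios, and no share over other pairs was computed. LDHA/LDHB had log2 ratios of -1.03, -1.0 and -1.0 in normoxia cells and 0.35, 0.23 and 0.28 in hypoxia cells, a 2.46-fold change. The side of 0 rests on the exon lengths (6210 bases for LDHA and 2983 for LDHB): in values per gene LDHA was above LDHB in every normoxia cell library, at 7232, 7532 and 8210 against 7079, 7243 and 7876. The ratio in hypoxia was also higher for PDK1/PDK2 (3.15-fold), ENO2/ENO1 (2.32-fold), PFKFB4/PFKFB3 (2.31-fold), ALDOC/ALDOA (2.10-fold), HK2/HK1 (1.81-fold), SLC2A3/SLC2A1 (1.57-fold), SLC16A3/SLC16A1 (1.32-fold) and PYGL/PYGB (1.15-fold), while PFKP/PFKL was 0.723 of its normoxia value.

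In EVs 4 of the 10 ratios were higher in hypoxia without overlap and 0 lower (smallest exact permutation p = 0.1). Of single genes 23.4% were higher and 14.5% lower in this way, which again are not shares of ratios. ENO2/ENO1 had -5.10, -5.14 and -4.04 in normoxia EVs and -3.18, -3.00 and -3.53 in hypoxia EVs, a 2.88-fold difference. ALDOC/ALDOA differed 2.73-fold, LDHA/LDHB 1.53-fold and PFKFB4/PFKFB3 1.51-fold. In LDHA/LDHB the EV libraries had -1.82, -1.69 and -1.90 in normoxia and -1.52, -1.10 and -0.94 in hypoxia, so the A gene was below the B gene per kb in every EV library, while per gene it was above it in hypoxia EV replicate 3 (1195 against 1105). Without normoxia EV replicate 3, 8 ratios had groups that did not overlap. ALDOC and ENO2 were at 6.07 and 7.37 times the olfactory receptor density in hypoxia EVs, nearer to it than their partners ALDOA and ENO1 (167 and 68.5), and after its subtraction 3 of the 4 ratios had groups that did not overlap, PFKFB4/PFKFB3 being the exception (9 ratios could be computed, not PDK1/PDK2).

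Between EVs and cells, 2 of the ratios differed in the test over 6 against 6 libraries. PDK1/PDK2 was lower in EVs, at 0.141 of its value in cells (log2 difference -2.83, lower in 6 of 6 EV libraries, exact permutation p = 0.00216, adjusted p = 0.0325). Its size is limited by PDK1, which lay at 1.14 times the olfactory receptor density in hypoxia EVs and at 0 in 1 of these libraries once that was subtracted, so that no ratio could be computed then. SLC16A3/SLC16A1 was 16.9-fold higher in EVs (log2 difference 4.08, higher in 6 of 6 EV libraries, exact permutation p = 0.00216, adjusted p = 0.0325), and with the olfactory receptor density subtracted the difference was 3.82 with an adjusted p = 0.0606 (exact permutation). PDK2 shares 2113 exon bases with SAMD14 on the opposite strand. With normoxia and hypoxia pooled, as in this test, the other 8 ratios overlapped between EVs and cells. Within each condition taken alone, LDHA/LDHB and HK2/HK1 were lower in every EV library than in any cell library. ENO2/ENO1 and PFKFB4/PFKFB3 were higher in the same way. Of single genes 28.8% were lower and 29.2% higher without overlap in normoxia, and 32.1% and 46.0% in hypoxia. No such share was computed for ratios of other pairs. The ratios were not tested within a condition.

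**Figure D5:**
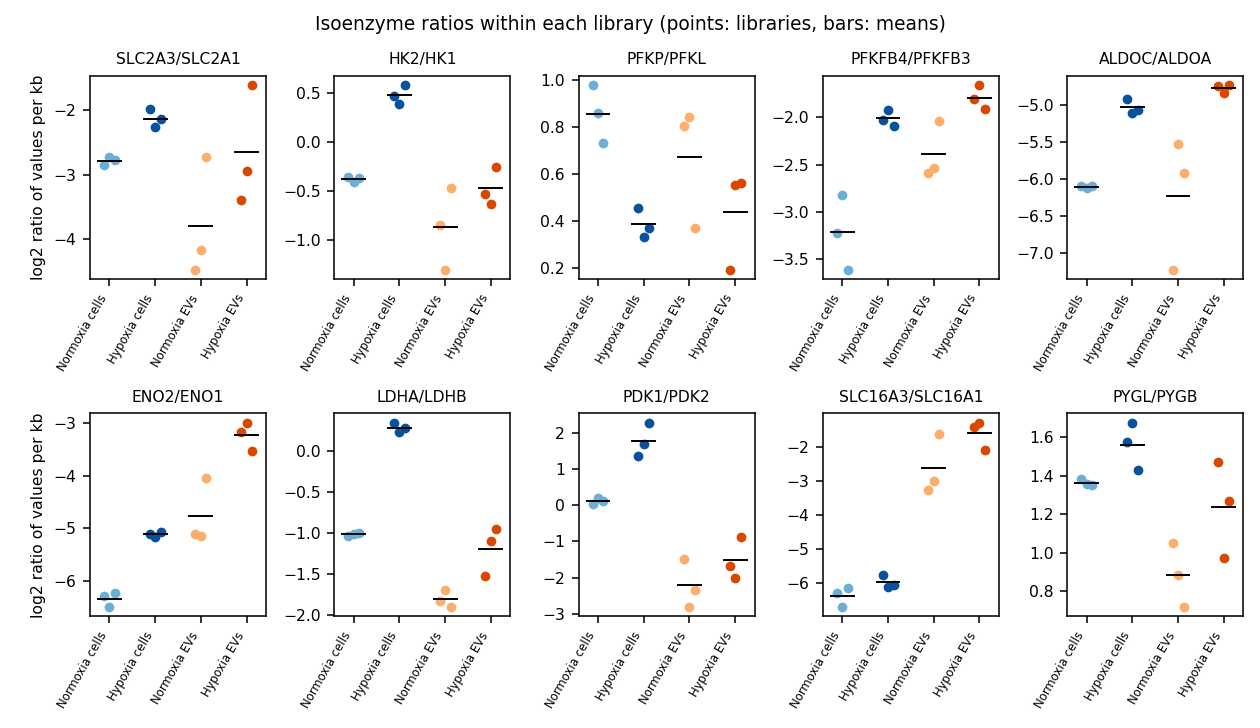
Log2 ratio of values per kb for the 10 isoenzyme pairs in each library (points) with group means (bars). LDHA/LDHB, per kb, lies below 0 in normoxia cells, above 0 in hypoxia cells and below 0 in every EV library, and SLC16A3/SLC16A1 lies higher in EVs than in cells.

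Copies of some members elsewhere in the genome held reads as well. The 13 processed pseudogenes of PGAM1 together held 2.65% of the value of PGAM1 in normoxia cells and 72.2% in hypoxia EVs. For the 64 of GAPDH the figures were 1.93% and 22.3%, for the single copy of HK2 0.695% and 18.5%, and for the 3 of SLC2A3 19.7% and 35.6%. The paralog SLC2A14 held 32.1, 62.4 and 151 units in hypoxia EVs, against 76.1, 89.8 and 217 for SLC2A3. The sums themselves went from 33.5 to 282 units for the copies of PGAM1 and from 213 to 1210 for those of GAPDH. For HK2 they went from 8.42 to 118 and for SLC2A3 from 21.1 to 45.4. Between the same groups the olfactory receptor density went from 0.508 to 8.52 units per kb. The part of this background in the sums was not tested. The values of PGAM1, GAPDH, HK2 and SLC2A3 in EVs are uncertain to the extent that reads were split among copies, which values per gene do not show. In all, 19 members share exon bases with another gene of the table, 16 of them with a gene on the opposite strand, and the sources used here do not give the strand setting of the counting.

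The further genes of glucose metabolism went both ways between EVs and cells. In normoxia 30 of 78 tested were lower in EVs and 16 higher (median -0.31), where 27.2% and 29.0% of all genes were. In hypoxia 28 were lower and 22 higher (median -0.13), where 29.1% and 40.6% of all genes were. Among the lower ones with the smallest p were PDHA1 (-1.85), DLAT (-2.25) and GPD2 (-2.44) in normoxia, and PDHA1 (-1.87), EMB, a partner of lactate carriers (-3.66), and DLD (-2.51) in hypoxia. Within EVs, hypoxia left BSG, the chaperone of the lactate carriers (-1.0, SE 0.23, limma adjusted p = 0.0166), and TALDO1 (-0.73, limma adjusted p = 0.0333) lower, and 3 of the 79 genes tested were higher, GPD1 (2.05), HKDC1 (2.14) and GCKR, the regulator of glucokinase (1.35), where 6.62% of all genes were lower and 5.68% higher. Between the same EV groups the olfactory receptor density went from 2.99 to 8.52 units per kb. The part of this background in the 3 higher genes was not tested. These calls are given with the authors' scaling only.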

How the data were processed

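The authors deposited a single table of signal per gene, normalized read counts by the values, for 12 libraries of 4 groups with 3 replicates each, assigned by the sample titles. Per the submitters' processing notes, the tools included Bowtie 0.12.2 and DESeq2 1.30.1, on hg38 (GRCh38); the sources used here do not give the counter, the annotation and the strand setting. Each library's low values are multiples of a step, and division by it gave whole reads (100% of values within 0.01). Libraries of a group differed beyond sampling noise in all 12 pairs (chi-square over its degrees of freedom, 5.05 to 13.4), and each counted as 1 sample.

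limma-trend (limma 3.58.1, R 4.3.3) was fitted to log2(value + 1) of all genes that averaged 10 or more, and called at 0.05 after Benjamini-Hochberg adjustment. Hypoxia was fitted in 6 cell and in 6 EV libraries, and EVs minus cells and the interaction in all 12. Alternatives were pseudocounts of 0.5 and 5, a filter at 50 or no filter, scaling by TMM or to equal totals, edgeR 4.0.16 and DESeq2 1.42.0 on recovered reads (edgeR called 1891 genes higher and 2606 lower in cells, 1026 and 2477 in EVs), subtraction of the olfactory receptor density, a replicate block, array weights per group and leaving out each library. Fits were run on simulated counts with the same spread in cells and EVs and no difference in background. That check does not cover how spread and background differ between the real libraries. Isoenzyme ratios were tested with SciPy 1.17.1. Promoters came from RefSeq.

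The members and all lists were chosen with earlier results of these data known. Every member may be named; values per library were given for at most the 12 members with the smallest p in a comparison and, for EV levels, for members already described, and other pathway genes by the 4 smallest p in each direction with a mean of at least 100. A gene among those that this rule selects is not reported here. The relation to GC content and the shares of PGK1 and of construct genes were added after the values were seen. TXNIP was not analysed here.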

Additional observations from a re-analysis of the deposited data

Results flagged for a closer look

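The 10 members whose hypoxia response differed between EVs and cells in the interaction test (limma, 3 libraries per group) had negative log2 differences, EVs minus cells. They were PFKFB4 (-1.72), PGK1 (-1.69), PGM2 (-1.34), ALDOA (-1.25), SLC2A1 (-1.15), PFKL (-1.13), PFKFB3 (-1.11), LDHA (-1.04), TPI1 (-0.93) and HK2 (-0.80). All 10 had risen in cells. In EVs with the authors' scaling none of the 10 was called higher, and TPI1 was called lower (-0.66). With equal totals PFKFB4 (1.13), HK2 (0.70) and SLC2A1 (0.69) were called higher in EVs and TPI1 was not called (-0.09, limma adjusted p = 0.614). That scaling called 15.4% of all genes higher in EVs, and the median of all genes was 1.20.

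Of the further genes of glucose metabolism 2 were called in the same test. BSG, which brings lactate carriers to the cell surface, had -0.99, and SLC37A4, the carrier of glucose phosphate into the endoplasmic reticulum, had 1.57, the opposite direction.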

How the results depend on the processing

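With the authors' scaling 21 members rose and 4 fell in cells, and both counts kept within 1.5 times under all alternatives run, as did those of EVs minus cells, except 2 instead of 4 higher in hypoxia with the olfactory receptor density subtracted. No called member or ratio changed sign, but the median of the members in EVs did, from -0.28 to 0.28 with equal totals. The EV response did not hold: 2 members were higher, but 0 with no filter, 7 with equal totals, 1 with edgeR, 1 with DESeq2, 0 with the density subtracted and 0 to 3 on leaving out a library; 3 were lower, but 0 with a pseudocount of 0.5, 0 with equal totals, 7 with DESeq2 and 0 to 13 on leaving out a library. In the interaction 10 members were lower, but 3 with no filter, 5 with equal totals, 17 with edgeR, 17 with DESeq2, 16 with array weights and 1 to 22 on leaving out a library, and 0 were higher, but 1 with DESeq2 and 0 to 1 on leaving out a library. Shares of all genes called moved as well. In EVs 15.4% were called higher with equal totals, against 5.68%. In the interaction 6.12% were called lower with edgeR, 9.42% with DESeq2, 4.63% with array weights and 13.3% without normoxia EV replicate 3, against 1.87%. Isoenzyme ratios without overlap numbered 4 in EVs (4 to 8 on leaving out a library). Between EVs and cells, with both conditions pooled, they numbered 2 (2 to 4 on leaving out a library). With the density subtracted the latter count was 1, as PDK1/PDK2 could not be computed. The cause was not tested, beyond the fewer samples of each fit that leaves out a library. Same-numbered libraries did not deviate together (correlations -0.117 to 0.0614 over 12 pairs), so the replicate block is given here only: it called 2 members higher and 5 lower in EVs, against 2 and 3, and 7 lower in the interaction, and its counts in cells were the same. Members below 3 times the olfactory receptor density in EVs are limited by that background and by reads worth about 2 units each.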
